A study of Mus musculus with 11 samples.

Results

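Troponin is the calcium switch of the thin filament in striated muscle. Its C subunit binds calcium, its I subunit holds back the contact of actin with myosin, and its T subunit anchors the complex to tropomyosin. Each subunit has isoforms named for the adult muscle that uses them, and developing skeletal muscle is known to use slow and cardiac forms for a time, while the adult mouse tongue is built largely of fast fibres. Tongue muscle is known to arise from progenitors that migrate into the mandibular arch from the occipital somites.

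The troponin genes described here are 8, taken as every probe set whose only gene symbol was Tnnt1, Tnnt2, Tnnt3, Tnni1, Tnni2, Tnni3, Tnnc1 or Tnnc2. That gave 12 of the 45101 probe sets and 8 of the 18194 genes named. The slow skeletal genes were Tnnt1 and Tnni1, with Tnnc1 shared by slow skeletal and cardiac muscle. The fast skeletal genes were Tnnt3, Tnni2 and Tnnc2, and the cardiac genes were Tnnt2 and Tnni3. Tnnt2 and Tnni2 had 3 probe sets each and the other genes 1 each.

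RNA was measured on 11 Affymetrix arrays in pieces of the mandibular arch, the embryonic source of the lower jaw and of much of the tongue, from embryos of the ICR mouse stock, with no treatment or genetic change named in the labels. The groups were medial tissue at E9.7 (1 array), E10.5 (3), E11.5 (2) and E14.5 (1), and lateral tissue at E9.7 (1) and E10.5 (3). Each sample was a pool of 40 embryos, and the labels do not say whether replicates of a group came from separate pools, so p-values measure only the spread between these samples. At E14.5 the labels name the tongue, and within it the front part of the medial piece. Stage and dissection therefore differ together there, and none of the other samples carries the word tongue.

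Values are log2 signals, with all 11 arrays brought to the same distribution by quantile normalization, and the level of 4.86, the median of an array, served as a mark below which a probe set was called dim. A signal is a level of its own probe set, so levels are set against each other only within a probe set. One medial array of E10.5 and one of E11.5 (replicate 1 of each stage) stood apart in the deposited values, with medians of 2.37 and 2.47 against 5.205 to 5.73 on the other 9 arrays. The arrays were clustered on the spiked-in control probe sets, and the tree was cut into 4 sets, a number that was chosen and not found. Both E9.7 arrays fell with 1 array each of medial E10.5, lateral E10.5 and medial E11.5. The pair of low arrays formed a set, 1 medial and 2 lateral E10.5 arrays another, and the E14.5 array was alone. In whole tissue, fewer muscle cells and less RNA per cell cannot be told apart. As a check of the label, Myod1 and Myog, which drive muscle differentiation, were dim at E9.7 and at medial E10.5. Myog averaged 4.09 at medial E10.5, 9.57 at E11.5 and 11.34 at E14.5, and on the lateral E10.5 arrays the highest values were 4.95 for Myog and 4.88 for Myod1, close to the mark.

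To set members that rose beside Tnni3, which stayed dim next to Tnnt1 on chromosome 7, the stretch upstream of 5 of them is shown, from RefSeq (GRCm38.p6): 250 bases before the start of the gene, 5′ to 3′ on the gene's strand. Capitals mark E-boxes (CANNTG, the motif of the myogenic bHLH factors) and MCAT motifs (CATTCC or its reverse complement, the motif of TEAD factors).
Tnnt1, chr7:4515976-4516225, minus strand: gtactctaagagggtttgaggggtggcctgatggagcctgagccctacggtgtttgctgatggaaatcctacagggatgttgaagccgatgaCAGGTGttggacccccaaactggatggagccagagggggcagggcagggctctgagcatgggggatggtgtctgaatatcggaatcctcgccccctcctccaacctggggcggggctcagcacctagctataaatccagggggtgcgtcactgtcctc
Tnnt2, chr1:135836084-135836333, plus strand: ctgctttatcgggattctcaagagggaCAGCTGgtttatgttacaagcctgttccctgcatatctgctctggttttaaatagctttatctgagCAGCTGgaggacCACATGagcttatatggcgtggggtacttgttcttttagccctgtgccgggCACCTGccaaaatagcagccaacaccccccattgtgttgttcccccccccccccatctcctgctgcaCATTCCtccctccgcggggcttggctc
Tnnc1, chr14:31208062-31208311, plus strand: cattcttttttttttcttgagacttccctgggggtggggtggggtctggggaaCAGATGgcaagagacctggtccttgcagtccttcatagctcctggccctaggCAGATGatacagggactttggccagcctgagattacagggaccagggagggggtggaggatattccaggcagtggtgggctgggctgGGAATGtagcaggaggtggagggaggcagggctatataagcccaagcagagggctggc
Tnnc2, chr2:164779735-164779984, minus strand: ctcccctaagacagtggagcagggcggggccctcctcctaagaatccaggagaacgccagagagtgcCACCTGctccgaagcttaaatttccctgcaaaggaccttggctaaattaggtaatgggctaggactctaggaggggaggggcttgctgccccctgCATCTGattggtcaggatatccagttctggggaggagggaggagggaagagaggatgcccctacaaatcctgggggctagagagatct
Tnni3, chr7:4522529-4522778, minus strand: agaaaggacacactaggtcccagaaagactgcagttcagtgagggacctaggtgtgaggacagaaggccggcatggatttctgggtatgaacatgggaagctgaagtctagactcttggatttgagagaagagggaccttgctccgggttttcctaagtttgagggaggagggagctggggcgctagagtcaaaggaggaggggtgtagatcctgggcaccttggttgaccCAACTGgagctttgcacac

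RefSeq windows were found for 6 of the 8 genes, 8 windows in all, since Tnnt2 and Tnni1 had 2 each. An E-box was in 8 of the 8 windows, against 66.2% of the 32851 windows of that table. The 2 Tnni1 windows overlap and share E-boxes, so the 8 windows are not separate stretches. By gene, all 6 genes had an E-box. The Tnnt2 stretch above held 4 E-boxes and an MCAT motif 27 bases before the start, Tnnc1 held 2 and an MCAT motif 58 bases before the start, and Tnnc2 held 2. Tnnt1 held 1 E-box and Tnni3, the cardiac I gene, also 1. MCAT motifs were in 2 of the 8 windows against 12.6% of all. The longer MEF2 and CArG motifs were in 0 of the 8 windows, against 0.508% and 1.47% of all windows. Tnni3 and Tnnt1 are neighbours on chromosome 7 with 0 protein-coding genes between them in the RefSeq order, Tnni2 and Tnnt3 lie on chromosome 7 with 1 between, and Tnni1 and Tnnt2 lie on chromosome 1 with 1 between.

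The first question was how the isoforms differed between medial tissue at E11.5 and at E10.5. Slow, fast and cardiac members rose together but by different amounts: Tnnt1, Tnnc2, Tnnc1, Tnnt2, Tnni1 and Tnni2 rose, Tnnt3 did not pass the test and Tnni3 stayed dim. The rise was 39.4-fold for the slow T gene Tnnt1 and 1.57-fold for the fast I gene Tnni2.

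Tnnt1, which encodes slow skeletal troponin T, had levels of 10.52 and 10.86 at E11.5, against 5.31, 5.38 and 5.47 at medial E10.5. Both E11.5 arrays stood far above the E10.5 arrays and the groups did not overlap. The log2 difference was 5.30 ± 0.17 (SE), and the limma fit over all genes gave an adjusted p of 1.55e-06.

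Tnni1, the slow inhibitory subunit and also the one of embryonic heart, had levels of 7.53 and 7.83 at E11.5, against 5.73, 5.48 and 5.92 at medial E10.5. Its difference was 1.97 ± 0.21 (adjusted p = 0.000479, limma). Tnnc1, the calcium-binding subunit of slow and cardiac muscle, had 7.11 and 8.33 at E11.5, against 5.07, 4.22 and 4.24 at medial E10.5. For Tnnc1 the E11.5 arrays lay above every E10.5 array, and the difference was 3.21 ± 0.36 (adjusted p = 0.000621, limma).

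Among the fast genes, Tnnc2, the fast calcium-binding subunit, had 7.27 and 7.68 at E11.5, against 3.70, 3.87 and 3.80 at medial E10.5. All E10.5 arrays were dim and both E11.5 arrays were not, and the difference was 3.68 ± 0.16 (adjusted p = 6.13e-06, limma). Tnni2, the fast inhibitory subunit, had 5.71 and 5.45 at E11.5, against 4.92, 4.79 and 5.08 at medial E10.5 in the probe set that stood for the gene. Its arrays did not overlap, and the difference was 0.65 ± 0.14 (adjusted p = 0.0277, limma). A second Tnni2 probe set gave 1.19 ± 0.23, with 5.79 and 5.11 at E11.5 against 4.52, 4.28 and 3.98 at medial E10.5 (adjusted p = 0.0211 in the limma fit over probe sets), and the third was dim on all arrays. Tnnt3, fast troponin T, had 5.24 and 4.86 at E11.5, against 4.61, 4.13 and 4.14 at medial E10.5. The groups did not overlap, but the difference of 0.76 ± 0.29 did not pass the test (adjusted p = 0.207, limma).

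Tnnt2, cardiac troponin T, had 5.60 and 6.48 at E11.5, against 3.54, 3.34 and 2.77 at medial E10.5, a difference of 2.82 ± 0.29 (adjusted p = 0.000377, limma). Its other bright probe set had 5.69 and 6.02 at E11.5 against 2.67, 2.88 and 2.48 at medial E10.5, a difference of 3.17 ± 0.18 (adjusted p = 4.35e-05, limma over probe sets, where 2.68% were called higher), and a further one was dim on all 11 arrays. Tnni3, cardiac troponin I, was dim on all 11 arrays, with 4.49 and 4.00 at E11.5 against 3.11, 3.93 and 3.69 at medial E10.5, and was not tested after the filter.

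In the fit, 6 of the 7 members that passed the filter rose, against 4.32% of the 11968 genes tested that were called higher (6.92% in either direction, 2.6% lower). Tnnt2, Tnnt3, Tnnc2 and Tnnc1 passed the filter only through the E11.5 arrays (Tnnc1 with 1 E10.5 array at the mark). The other bright Tnnt2 probe set and the second Tnni2 probe set passed in the same way. That count and the adjusted p-values of these after the filter are therefore not support. Without the filter, 6 of the 8 members rose, against 2.78% of all 18194 genes. In that limma fit the adjusted p was 0.000315 for Tnnt2, 0.257 for Tnnt3, 3.35e-06 for Tnnc2 and 0.000503 for Tnnc1. The median difference of the 8 members was 2.40 and that of all named genes 0.01. Within the set of arrays that holds 1 array of each stage away from the low arrays, Tnnt1 differed by 5.47, Tnnc2 by 3.81, Tnnc1 by 4.11, Tnnt2 by 3.14, Tnni1 by 2.35, Tnni2 by 0.66 and Tnnt3 by 0.74, and within the low pair by 5.21, 3.57, 2.04, 2.06, 1.80, 0.78 and 0.63, with no replicate in either. The Tnni2 call ended under several settings, with an adjusted p of 0.152 without replicate 1 of E11.5, and of 0.0545 and 0.0955 without replicates 1 and 2 of medial E10.5 (limma). On the values as deposited, 0 of the members were called (limma, 1 gene of all 13031 tested called and 53 at an unadjusted p under 0.05).

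**Figure D1:**
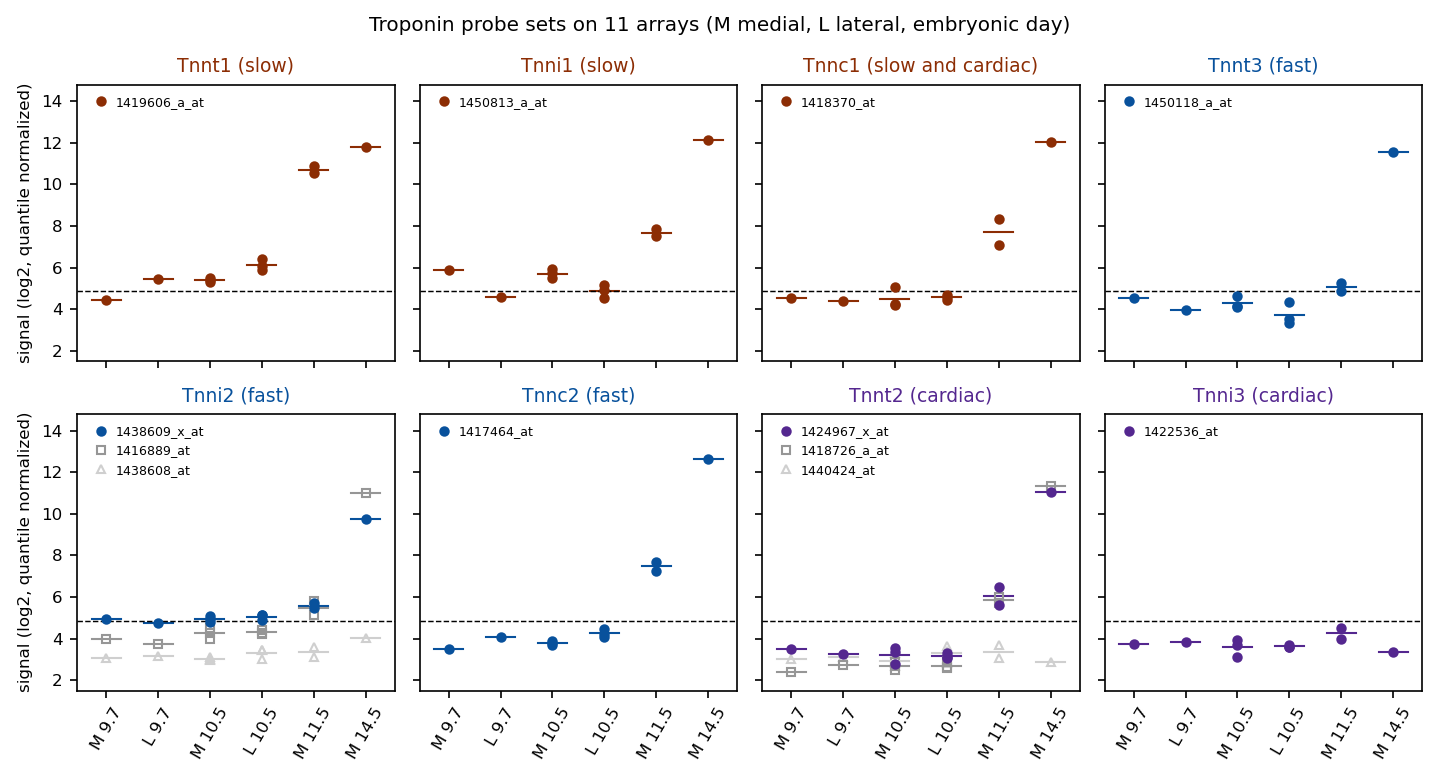
Signal (log2, quantile normalized) of each troponin probe set on each array, in 8 panels grouped by isoform class, with the 6 groups on the horizontal axis, points for arrays, short lines for group means and a dashed line at 4.86. Points of Tnnt1 lie near 10.7 at E11.5 while those of Tnnt3 lie close to the dashed line there, and Tnni3 stays under it on all 11 arrays.

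The second comparison set medial E14.5 against medial E11.5, with 1 array against 2, so differences have no test. In the E14.5 sample all 3 fast members reached high levels, as did Tnnt2, Tnni1 and Tnnc1. Tnnt1 was above both E11.5 arrays by a smaller margin, and Tnni3 stayed dim. On the E14.5 array the probe sets that stood for the members other than Tnni3 lay between the percentiles 94.6 and 99.6 of all probe sets.

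Tnnt3 had 11.55 at E14.5 against 5.24 and 4.86 at E11.5, a log2 difference of 6.49 or 90.1-fold. That was the largest member difference, ranked 5 of the 18194 genes named. Tnnc2 had 12.64 against 7.27 and 7.68 (5.16, 35.8-fold). Tnnt2 had 11.06 against 5.60 and 6.48 (5.02, 32.5-fold), and 11.33 against 5.69 and 6.02 in its other bright probe set.

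Tnni1 had 12.15 at E14.5 against 7.53 and 7.83 at E11.5 (4.47, 22.1-fold). Tnnc1 had 12.03 against 7.11 and 8.33 (4.31, 19.9-fold). Tnni2 had 9.75 against 5.71 and 5.45 (4.17, 18.0-fold), and 11.02 against 5.79 and 5.11 in its second probe set. In all 6 of these genes the E14.5 array stood far above both E11.5 arrays. Tnnt1 had 11.81 at E14.5 against 10.52 and 10.86 (1.12, 2.17-fold), above both arrays but not 2-fold beyond the higher. Tnni3 had 3.37 at E14.5 against 4.49 and 4.00, all of them dim. Without replicate 2 of E11.5, the higher array for Tnnt1 and the lower for Tnni3, Tnnt1 (1.28) and Tnni3 (-1.12) were also past 2-fold. Tnnt1 was past it as well with the arrays centred (1.51) and as deposited (2.86). The deposited difference includes the low E11.5 array, as the deposited levels were 8.18 and 10.98 at E11.5 and 12.44 at E14.5.

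The members that were at least 2-fold beyond every E11.5 array were 6 of 8, all higher, against 8.1% of the 18194 genes (10.6% in either direction, 2.52% lower). The median difference was 4.39 for the 8 members and 0.06 for all named genes. Stage, dissection and array set cannot be told apart, since the E14.5 array is alone in its set of spiked-in signals.

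How the whole change was divided between the steps differed between members. As a share of the log2 difference between E14.5 and medial E10.5, the first step held 82.6% for Tnnt1 (whole difference 6.42), 42.7% for Tnnc1 (7.52), 41.6% for Tnnc2 (8.85), 36.0% for Tnnt2 (7.85), 30.6% for Tnni1 (6.44), 13.4% for Tnni2 (4.82) and 10.46% for Tnnt3 (7.25). The slow genes Tnnt1 and Tnni1 lay at 82.6% and 30.6% of their whole change, and the fast genes at 10.46% to 41.6%, so across subunits the classes overlapped. For the T and I subunits the slow gene held a larger share than the fast one: 82.6% against 10.46% for T and 30.6% against 13.4% for I. For C the shares were close, at 42.7% for Tnnc1, shared with cardiac muscle, and 41.6% for Tnnc2. Without replicate 2 of E11.5 the steps were 2.60 and 4.93 for Tnnc1 and 3.48 and 5.37 for Tnnc2. The first step of Tnnc1 was then the smaller share, so the order for C depended on the arrays used. These shares rest on 1 array at E14.5 and have no test. The second Tnni2 probe set held 17.6% of a larger whole difference (6.76). With each array centred on its median Tnnt1 held 77.6% and Tnnt3 9.96%, and without the low arrays Tnnt1 held 85.1% and Tnnc1 52.5%. Tnnt2, Tnnt3 and Tnnc2 were dim on every E10.5 array, so the size of their first step is limited by the dim baseline.

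**Figure D2:**
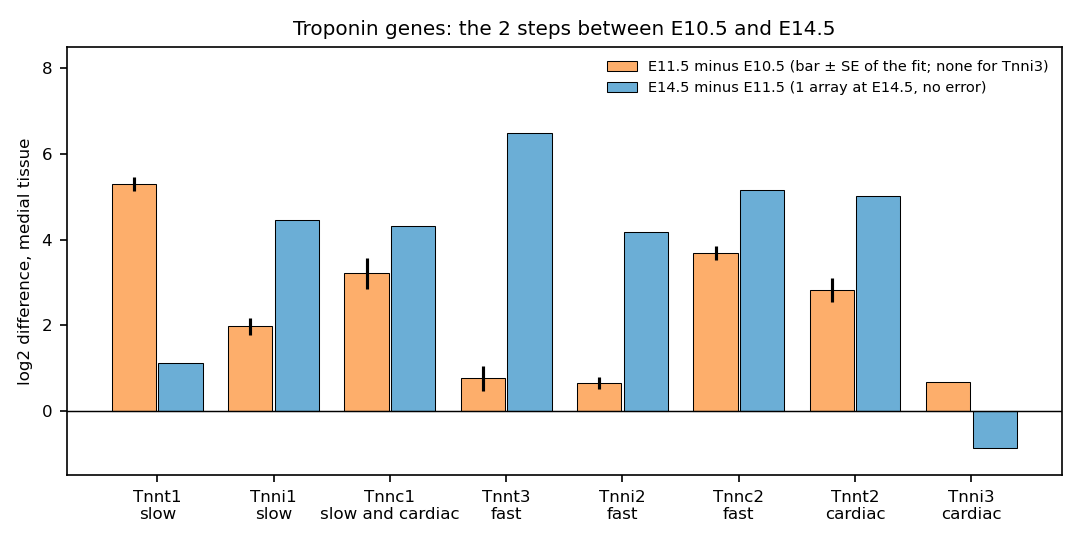
Log2 differences of each troponin gene in medial tissue, E11.5 minus E10.5 (orange, bar ± SE of the fit, none for Tnni3) and E14.5 minus E11.5 (blue, no error). For Tnni3 the orange bar lies above 0 (0.67) and the blue one below it (-0.87). Among the other genes the orange bar is taller than the blue one for Tnnt1 alone (5.30 and 1.12), and for Tnnt3 the blue bar reaches 6.49 against an orange one of 0.76.

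The third comparison was medial against lateral tissue, at E10.5 with 3 arrays each. Tnnt1 was lower and Tnni1 higher in medial tissue, opposite directions for the slow T and slow I genes, and no other member passed the test.

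Tnnt1 had 5.31, 5.38 and 5.47 at medial E10.5, against 6.41, 6.08 and 5.90 at lateral E10.5. All medial arrays lay below all lateral arrays, and the difference was -0.74 ± 0.15 (adjusted p = 0.0275, limma). Tnni1 had 5.73, 5.48 and 5.92 at medial E10.5, against 4.92, 4.53 and 5.17 at lateral E10.5. All medial arrays lay above all lateral arrays, and the difference was 0.84 ± 0.19 (adjusted p = 0.0383, limma). Tnnc2 had 3.70, 3.87 and 3.80 at medial E10.5, against 4.44, 4.23 and 4.07 at lateral E10.5, all dim and not overlapping, and its difference of -0.46 ± 0.14 did not pass (adjusted p = 0.145, limma).

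Tnnt3 differed by 0.57 ± 0.26, Tnni2 by -0.12 ± 0.13, Tnnt2 by 0.06 ± 0.26 and Tnnc1 by -0.05 ± 0.32, with adjusted p from 0.334 to 0.956 (limma) and overlapping arrays, and Tnni3 was dim on all arrays. Of the 7 members tested, 2 were called, against 4.63% of the 11968 genes (2.82% higher and 1.8% lower), and of all 8 without the filter 2 were called against 2.75%. In the limma fit over probe sets, where 2.94% were called, Tnnt1 was called (adjusted p = 0.0459) and Tnni1 was not (adjusted p = 0.0609). Both calls ended without medial replicate 1 or 3 or lateral replicate 1 or 2 (adjusted p from 0.0552 to 0.142, limma), with the arrays centred (0.161 for Tnnt1 and 0.0833 for Tnni1) and without both low arrays (0.0616 and 0.1002), and the Tnnt1 call ended without medial replicate 2 (0.0894). Within the array set of 1 medial and 1 lateral array the differences were -1.03 for Tnnt1 and 0.56 for Tnni1, and within that of 1 medial and 2 lateral arrays -0.52 and 1.07.

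At E9.7, with 1 array a side and no test, the same genes stood apart: Tnnt1 had 4.43 at medial against 5.43 at lateral E9.7 (-1.002), and Tnni1 had 5.89 against 4.59 (1.30). They were the 2 of 8 members at least 2-fold apart, against 1.19% of the 18194 genes. Tnnc2 had 3.49 against 4.08 (-0.59) and Tnnt3 4.52 against 3.98 (0.54), and the other 4 differed by at most 0.26 in the probe sets that stood for them. For Tnnt2 that difference was 0.26, while its other bright probe set gave -0.31, with both probe sets dim at E9.7.

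Myogenic genes and markers of other cells also differed between medial and lateral tissue, in both directions. At E9.7, 3 of 6 epithelium markers were higher in the medial sample by 2-fold or more, Krt8 by 1.36, Krt18 by 1.17 and Krt14 by 1.08, and 3 of 13 myogenic genes lower, Myf5 by -1.77, Tcf21 by -1.24 and Msc by -1.21. At E10.5, of 6 epithelium markers, 4 were higher in medial E10.5 tissue, Krt18 by 1.49, Krt8 by 1.35, Krt14 by 1.11 and Epcam by 0.70, and their summed signal on the linear scale was 2064 to 2335 on medial against 1002 to 1145 on lateral arrays. Of 13 myogenic genes, of which 10 were tested, Mef2c was higher (0.60) and Msc and Tcf21, markers of head muscle progenitors, were lower (-1.1004 and -0.79), and their summed signal was 788 to 839 on medial against 821 to 859 on lateral arrays. Of 6 arch mesenchyme markers, Hand2 (1.45) and Msx1 (0.73) were higher and Dlx2 (-2.29) and Dlx5 (-1.73) lower. Without the filter on dim genes, the Mef2c and Msx1 calls ended. Myog differed by -0.79 (adjusted p = 0.0765, limma) and Actc1, cardiac actin, which embryonic skeletal muscle uses, by -0.82 (adjusted p = 0.103, limma). The part of these cells in the troponin differences was not tested.

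**Figure D3:**
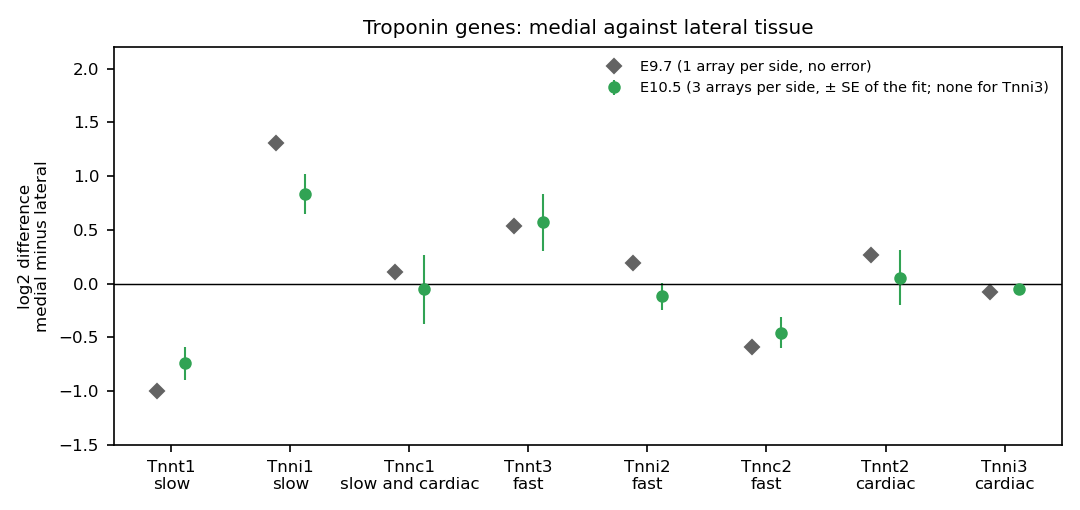
Log2 difference of medial minus lateral tissue for each troponin gene at E9.7 (diamonds, 1 array per side, no error) and E10.5 (circles, 3 arrays per side, ± SE of the fit, none for Tnni3). Tnnt1 lies below 0 at both stages and Tnni1 above 0 at both, while Tnnc1, Tnni2, Tnnt2 and Tnni3 lie near 0.

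From E9.7 to E10.5 little differed. In medial tissue Tnnt1 was 0.96 higher at E10.5 (5.31, 5.38 and 5.47) than at E9.7 (4.43), and in lateral tissue 0.70 higher (6.41, 6.08 and 5.90 against 5.43). No member reached 2-fold beyond every array, 0 of 8 in each tissue, against 0.654% of genes in medial and 0.874% in lateral tissue. In the probe sets that stood for the genes, the other members differed by at most 0.32 in either tissue. The second Tnni2 probe set was 0.54 higher at lateral E10.5 than at lateral E9.7.

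Across the 6 groups, Tnnt1 ran from medial E9.7 (4.43) through medial E10.5 (5.39 ± 0.08, SD), lateral E9.7 (5.43) and lateral E10.5 (6.13 ± 0.26) to E11.5 (10.69 ± 0.24, n = 2) and E14.5 (11.81), and lateral E9.7 lay inside the range of the medial E10.5 arrays. Tnni1 ran from lateral E9.7 (4.59) through lateral E10.5 (4.87 ± 0.32), medial E10.5 (5.71 ± 0.22) and medial E9.7 (5.89) to E11.5 (7.68 ± 0.21) and E14.5 (12.15), with each E9.7 array inside the range of its own tissue at E10.5. Tnnc2 ran from medial E9.7 (3.49), medial E10.5 (3.79 ± 0.08), lateral E9.7 (4.08) and lateral E10.5 (4.24 ± 0.19) to E11.5 (7.47 ± 0.29) and E14.5 (12.64), and lateral E9.7 lay inside the range of the lateral E10.5 arrays. For Tnnc1 and Tnnt2 the 4 earlier groups could not be ordered, as their means (4.41 to 4.56 for Tnnc1 and 3.16 to 3.50 for Tnnt2) lay inside the range of the medial E10.5 arrays. For Tnnt3 the lateral and medial E10.5 arrays overlapped, and for Tnni2 the earlier means ran only from 4.73 to 5.05. Tnni3 ran from E14.5 (3.37) to E11.5 (4.25 ± 0.35), with the E14.5 value inside the range of the medial E10.5 arrays.

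Some of the named muscle genes rose with the members and others did not. Several list genes passed the filter only through the E11.5 arrays, among them Myl1, Casq2, Mybpc1, Myh3 and Sln, so list counts at E11.5 against medial E10.5 are given over every named gene of a list, from the limma fit without the filter, in which 2.78% of all genes were called higher. This setting was chosen for the lists after seeing the data. Of 13 myogenic genes 8 rose (median 1.23), among them Myog (5.48), Myod1 (4.13), Myf5 (3.73) and Tcf21 (3.16). Of 11 fast genes 5 rose (median 0.54), with Myl1 (5.08) and Mylpf (3.56), the fast myosin light chains. Of 10 slow genes 2 rose (median 0.48), Casq2 (1.58) and Mybpc1 (1.55). The embryonic and neonatal genes rose in 5 of 5 (median 2.41), Myh3, the embryonic myosin heavy chain, by 4.12. Of 12 thin filament genes 6 rose (median 0.73), with Actc1 (5.84), Acta1, skeletal actin (2.03), and the tropomyosins Tpm2 (1.44) and Tpm1 (1.096). The median of all named genes was 0.01. These lists also share genes: Tpm1 and Tpm3 each count in 2 of them.

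At E14.5 against E11.5, the genes at least 2-fold beyond every array were 5 of the 5 embryonic genes (median 5.77; Myl4 6.42, Myh8 5.86 and Myh3 5.77), 6 of 10 slow genes (median 3.63), with Csrp3 (6.42), Casq2 (5.47), Myoz2 (5.36) and Myh7, the slow myosin heavy chain (4.51), and 4 of 11 fast genes (median 0.44), with Mylpf (4.65) and Myl1 (3.83). Of the 11 fast genes 5 were dim on all arrays, among them the adult fast myosins Myh1, Myh2 and Myh4, against 0 of the 10 slow genes. The fast and slow medians are therefore not on an equal footing. Of the thin filament genes 8 of 12 were beyond 2-fold (median 2.22), with Acta1 (5.19) and Neb, nebulin (5.05), and of the myogenic genes 7 of 13 were higher and 1, Tcf21, lower (-2.15). By the same rule 8.1% of all 18194 genes were higher and 2.52% lower.

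Tnnt2, cardiac troponin T, was higher at E11.5 and E14.5 in tissue in which 5 of the 10 heart muscle markers (Gata4, Nppa, Myl7, Ryr2 and Tbx20) were dim on all 11 arrays, as was Tnni3. Of the 10, Nkx2-5 (2.64), Sln (2.57) and Myh6 (1.56) rose at E11.5 in the fit without the filter, and at E14.5 Sln (5.09) was beyond 2-fold. Nkx2-5 and Sln are known outside the heart as well. Nppb (5.27), Mybpc3 (5.16) and Myh6 (4.95) lay just above the mark at E14.5. The summed linear signal of the heart list was 154 to 170 on medial E10.5 arrays, 339 to 412 at E11.5 and 2728 at E14.5, where Sln had a log2 level of 11.13. Smooth muscle markers rose in 2 of 6 at E11.5, Acta2 (4.95) and Myocd (1.48), Cnn1 and Myh11 were dim on all 11 arrays, and the red cell markers Hbb-y and Alas2 differed by -0.013 and -0.020 (adjusted p = 0.981 and 0.978, limma). Arch mesenchyme markers fell in 6 of 6 at E11.5, with Dlx5 (-3.92) and Msx1 (-3.47), and epithelium markers fell in 5 of 6, with Krt14 (-2.03). At E14.5 epithelium markers were beyond 2-fold higher in 5 of 6, with Krt14 (5.15) and Krt5 (4.51), and arch mesenchyme markers in 1 of 6 higher and 1 lower. The smooth muscle markers Tagln (2.30) and Smtn (1.63) were beyond 2-fold higher at E14.5, and the red cell marker Hbb-y (-1.104) beyond 2-fold lower. The part of these cells in the differences was not tested.

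**Figure D4:**
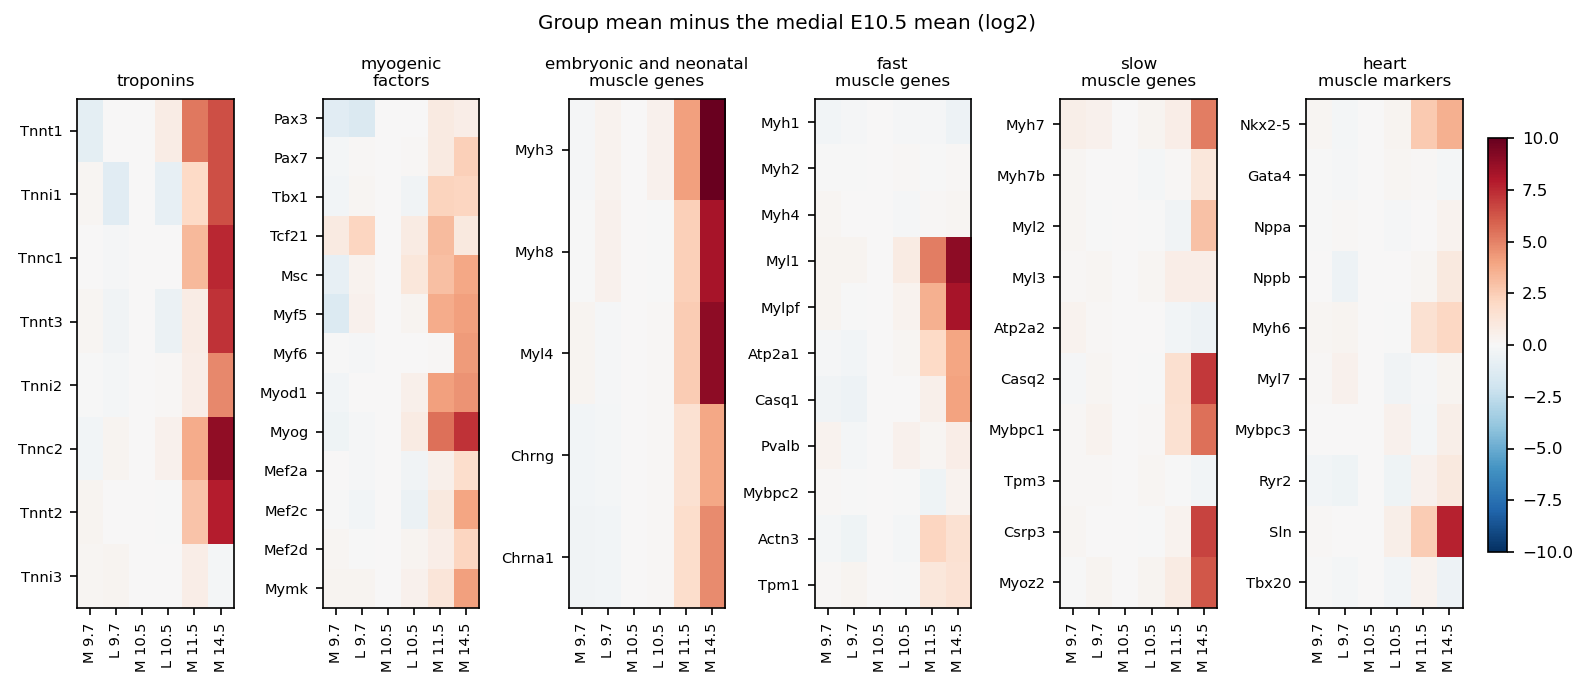
Heat map of group mean minus the medial E10.5 mean (log2, red above and blue below) for the troponins and 5 lists of muscle and heart genes, with the 6 groups on the horizontal axis. Red spreads at E11.5 over Tnnt1, Myog and Myl1, and at E14.5 over Myh3, Csrp3 and Tnnt3, while Tnni3 and most heart markers stay pale.

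By the root mean square difference between profiles over the 6 group means, each centred on its own mean, the named genes most like Tnnt1 were Myog (0.33), Thbs4 (0.45) and Acta2 (0.46). Those most like Tnnt2 were Neb (0.16), Sln (0.29) and Mylpf (0.30), and those most like Tnnc1 were Mylpf (0.23), Neb (0.26) and Sln (0.35). Tnnc2 was nearest to Mylpf (0.36), Myh3 (0.37) and Myl1 (0.50). Tnnt3 was nearest to Cav3 (0.33), Smpx (0.34) and Atp1b4 (0.35), genes that were dim up to E11.5, with means of 4.06, 3.54 and 2.82 there, and at 10.58, 10.79 and 10.13 at E14.5. Tnni1 was nearest to Ablim3 (0.49), Unc45b (0.50) and Tnc (0.50), and Tnni2 to Hspb2 (0.06), Mypn (0.12) and Cilp (0.14). Tnni3, whose profile was flat with an SD of 0.29 over the means, was nearest to Gdf11, Htr5b and Olfr156 (0.08 to 0.10).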

How the data were processed

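RNA of 11 samples of pooled embryos was hybridised to Affymetrix arrays. The deposited values are log2 signals between 0.0887 and 14.5, made by the authors with Affymetrix Expression Console 1.1 per the submitters' processing notes. The base was inferred from the range, and the algorithm, scaling and background step are not given in the sources used here. The deposited medians were 2.37 and 2.47 on 2 arrays and 5.205 to 5.73 on 9, so the values were quantile normalized across the 11 arrays, and the scale of the low arrays stays unknown. Probe sets were named from GEO's platform annotation and RefSeq (34958 with 1 symbol, 932 with several, 9211 with none). A gene was represented by its probe set of highest mean. A gene was tested if 2 or more of the 8 arrays in replicated groups reached 4.86 (the 50th percentile), which kept 11968 of 18194. limma 3.58.1 in R 4.3.3 (lmFit, eBayes) fitted 1 mean per group over 6 groups with 5 residual degrees of freedom, Benjamini-Hochberg adjusted over all genes and called at 0.05, and the script was tested on simulated data. Comparisons with a single array on a side were counted at 2-fold beyond every array, with no test. The number of arrays limits the precision. Named genes were the 8 members with all their probe sets, up to 4 per list with the largest difference (smallest adjusted p where tested), any fast, slow, heart or myogenic gene, and the 3 nearest profiles. Of the listed genes, 1 myogenic, 1 fast and 2 red cell genes are not used here. The members, lists and tests were chosen with earlier results of these data known. Alternatives were the deposited scale, centring, filter, choice of probe set, variance model, samples fitted, replicate block, array weights, array set as an effect, and arrays left out.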

Additional observations from a re-analysis of the deposited data

How the results depend on the processing

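At E10.5, medial against lateral tissue, 2 troponin genes were called (554 genes in all). The count was 0 on the deposited scale (2 genes in all), 0 with arrays centred (358), 4 with array weights (2833, adding Tnnc2 at an adjusted p of 0.0309 and Tnnt3 at 0.0435), 0 without the 2 low arrays (712), 3 with the array set as an effect (1254), 1 with a row per probe set, and 0 to 2 with each replicate left out (308 to 528 genes in all). At E11.5 against medial E10.5, 6 were called (828 in all); the count was 0 as deposited (1 in all) and 5 or 6 otherwise, with 455 genes in all after centring, 482 with only the compared groups and 2182 with the array set as an effect. The 2 troponins past 2-fold at E9.7, medial against lateral, became 0 at 4-fold, and in medial tissue at E10.5 against E9.7 the count of 0 became 1 at 1.5-fold. At E14.5 against E11.5 the 6 troponins past 2-fold became 7 with arrays centred and 7 as deposited, and 6 to 8 with a replicate left out. Array weights also moved the share of higher calls at E10.5, to 1325 of 2833 against 338 of 554. Reversed in sign at E10.5, medial against lateral: Tnnt2 at -0.11 with the mean of probe sets, -0.034 with the array set as an effect, -0.11 without the low arrays and between -0.11 and 0.28 with each replicate left out; Tnnt3 at -0.51 and Tnni1 at -0.34 as deposited; Tnnc1 between -0.33 and 0.094 with each replicate left out. As deposited, the median difference of all genes tested in this comparison was -1.03, and Tnnt3 and Tnni1 lay above it. The cause of the reversals was not tested. The replicate block gave 2 and 6 troponins (779 and 868 genes in all). Arrays of the same number correlated at 0.13, -0.29 and 0.48 between medial and lateral E10.5, and at 0.59 and 0.39 between medial E10.5 and E11.5. The pair at 0.59 is that of the 2 low arrays. With only 2 arrays at E11.5, the values for numbers 1 and 2 crossed (-0.59 and -0.39) mirror these by construction and add nothing. Neither the labels nor 3 such pairs tie arrays of the same number, so they were not read as pairs. With 2 or 3 arrays a group and dim signals before E11.5, differences of dim genes are least certain.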
